A study of Mus musculus with 12 samples.

Results

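Gene expression in undifferentiated mouse embryonic stem cells was compared with that after 3 days of growth as embryoid bodies, the free-floating aggregates in which such cells leave the pluripotent state and form early germ layer cells. The samples were taken by their titles: 2 arrays of undifferentiated cells and 2 of embryoid bodies at day 3 (EB day 3), which are 4 of the 12 arrays of the series. The cells are embryonic stem cells of mouse strain 129. The undifferentiated samples are titled LIF, the usual abbreviation of leukaemia inhibitory factor, the cytokine used to hold mouse embryonic stem cells in self-renewal; the culture media, feeder cells and other agents are not given in the sources used here, and no allele or genetic change is named for any group. Each group holds a sample labelled clone #1 and a sample labelled clone #2, here replicates 1 and 2, from experiments that the design text calls independent and done by different people. Embryoid bodies at day 1 and cells grown for 3 days as a mono layer (ML day 3), 2 arrays each, serve as comparison groups. The labels do not say whether a clone number names the same cell clone in every group, so the p-values measure the spread between these samples only.

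The early embryo passes from the naive pluripotent state of the inner cell mass to the formative and then primed state of the epiblast, and epiblast cells then enter the primitive streak, where mesoderm and definitive endoderm form. Wnt, Nodal and BMP signals start the streak, and T-box and homeobox transcription factors such as T (brachyury), Eomes, Mixl1 and Lhx1 mark the cells that pass through it. Naive cells depend on LIF acting through STAT3, and their transcription factors Klf4, Esrrb, Zfp42 and Tfcp2l1 are lost before lineage genes appear. Stra8, a gene that retinoic acid induces in germ cells at the entry into meiosis, is known to respond to retinoic acid in embryonic stem cells too.

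Total RNA was measured on 1-colour arrays with 43379 gene spots each. Between 52.1% and 63.8% of spots were well above background on the 12 arrays, and no spot was saturated. A level here is the log2 signal of a gene's probe minus the 75th percentile of its array, so 0 is a bright gene and values near -7 are at background. The undifferentiated arrays shared a slide and a scan day, and the EB day 3 arrays shared another slide and scan day with those of EB day 1. Slide and group therefore cannot be told apart in the main comparison, whereas EB day 3 and EB day 1 were compared within a slide. Labelling controls added to each sample (E1A spike-in RNA) were brighter in EB day 3 than in undifferentiated samples for 9 of 10 control probes. The mean difference was 1.18 on the log2 scale, relative to each array's 75th percentile. It was 1.29 for EB day 1 and 1.09 for ML day 3, which share the scan day of EB day 3, and 0.001 for EB day 4. The part of this in the results was not tested.

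At EB day 3, 2297 of 17724 genes were higher than in undifferentiated cells (13.0% of the genes tested) and 1899 were lower (10.7%), at an adjusted p under 0.05. The median change of all genes was 0.05, and these shares are the background of the list counts below. Among the called genes, 536 rose by more than 2 on the log2 scale, which is more than 4-fold, and 608 fell by more than that. Leaving out 1 array moved both counts: dropping EB day 3 replicate 2 gave 1022 and 806, dropping its partner, replicate 1, gave 1264 and 1288, and dropping undifferentiated replicate 2 gave 1414 and 1157. Against EB day 1, on the same slide, 548 genes were higher at EB day 3 (3.09%) and 411 lower (2.32%). The sum of these 959 calls was 108 once EB day 3 replicate 2 was dropped; dropping EB day 1 replicate 1 gave 211, and dropping its partner, replicate 2, gave 104. The replicates correlated across genes at 0.978 in undifferentiated cells and 0.985 at EB day 3, and 11.9% and 8.26% of genes were 2-fold or more apart between them.

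T, Eomes, Lhx1 and Stra8 were taken as markers of this comparison with earlier results of these data known. T, the T-box factor of the streak and nascent mesoderm, was at -3.67 and -4.51 in the undifferentiated replicates and at 2.00 and 2.20 at EB day 3. The groups lay far apart, and the change was 6.19 ± 0.63 (SE, adjusted p = 0.00051). Eomes, a T-box factor needed for endoderm and cardiac mesoderm, went from -2.78 and -3.00 to 3.26 and 3.20, a change of 6.12 ± 0.59 (adjusted p = 0.00038). Lhx1, a LIM homeobox factor of the anterior streak and organizer, went from -3.31 and -3.93 to 5.01 and 5.29, a change of 8.77 ± 0.56 (adjusted p = 7.72e-05). Stra8 went the other way, from 3.02 and 3.44 to -4.22 and -4.63, a fall of 7.66 ± 0.54 (adjusted p = 0.00011). All 4 calls held under each alternative setting in which the gene was tested and without each of the 4 arrays. The probes lie, in the files' build mm9, at chr17:8634870-8634929 for T, chr9:118394286-118394345 for Eomes, chr11:84333091-84333150 for Lhx1 and chr6:34889231-34889290 for Stra8; exon and UTR annotation of that build was not used here. Because these are bulk samples, more cells of a type and more RNA per cell cannot be told apart.

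**Figure D1:**
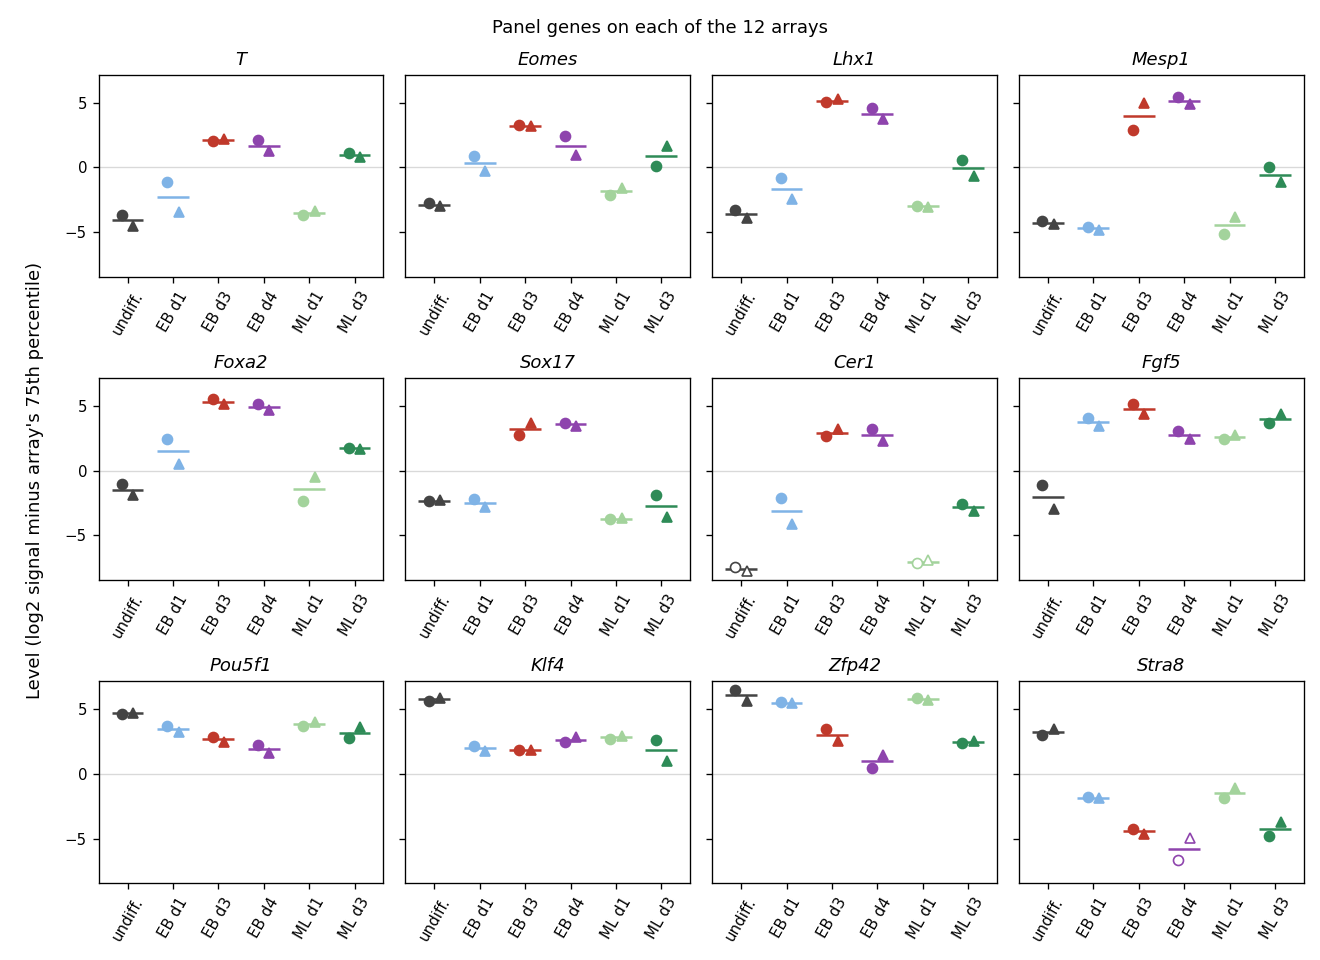
Levels of 12 panel genes (y axis, log2 signal minus the array's 75th percentile) on each array of the 6 groups (x axis); circles are replicate 1, triangles replicate 2, bars group means, and open symbols mark groups with no array well above background. T, Eomes, Lhx1, Mesp1, Foxa2, Sox17 and Cer1 were high on both EB day 3 arrays and low on both undifferentiated arrays, Klf4 was already lower at day 1, and Stra8 fell from 3.02 and 3.44 to -4.22 and -4.63.

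To show the regulatory sequence next to genes of this kind, the 250 bases before the start of 13 genes were searched on both strands for 4 short motifs, using promoters from RefSeq (build GRCm38.p6). The motifs were CTTTGAT (TCF/LEF, the factors of Wnt signalling), GTGTGA (a T-box half-site), AATNCAC (FOXH1, a partner of the SMADs in Nodal signalling) and AGGTCA (a half-site of the retinoic acid receptor). Of all 32851 promoters of that length, 3.21% held CTTTGAT, 12.3% GTGTGA, 7.99% AATNCAC and 14.0% AGGTCA. The table held promoters for 11 of the 13 genes, and 4 of them had a match: Sp5 and Mesp1 for TCF/LEF, Evx1 for the T-box half-site on the minus strand, and Stra8 for the retinoic acid receptor half-site at 2 positions. The promoters of T, Eomes, Lhx1, Cer1, Gsc, Axin2 and Cyp26a1 held none of these letters in the window. The 4 promoters with a match are printed 5′ to 3′ in the direction of the gene, with the matches in capitals; no matches overlapped. They lie at chr2:70474673-70474922 (plus strand) for Sp5, chr7:79793591-79793840 (minus strand) for Mesp1, chr6:52313248-52313497 (plus strand) for Evx1 and chr6:34920698-34920947 (plus strand) for Stra8. The match begins 104 bases before the start in Sp5, 31 in Mesp1 and 69 in Evx1, and the matches of Stra8 begin 194 and 38 bases before it.
Sp5: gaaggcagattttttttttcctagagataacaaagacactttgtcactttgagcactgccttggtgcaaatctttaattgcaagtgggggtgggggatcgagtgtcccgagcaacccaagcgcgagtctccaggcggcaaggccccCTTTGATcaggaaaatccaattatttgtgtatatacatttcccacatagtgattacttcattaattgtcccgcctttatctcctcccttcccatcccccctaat
Mesp1: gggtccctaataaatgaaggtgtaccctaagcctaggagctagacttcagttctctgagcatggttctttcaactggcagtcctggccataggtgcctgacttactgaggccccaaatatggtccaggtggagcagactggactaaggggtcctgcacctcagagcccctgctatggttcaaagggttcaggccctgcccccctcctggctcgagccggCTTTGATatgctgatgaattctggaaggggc
Evx1: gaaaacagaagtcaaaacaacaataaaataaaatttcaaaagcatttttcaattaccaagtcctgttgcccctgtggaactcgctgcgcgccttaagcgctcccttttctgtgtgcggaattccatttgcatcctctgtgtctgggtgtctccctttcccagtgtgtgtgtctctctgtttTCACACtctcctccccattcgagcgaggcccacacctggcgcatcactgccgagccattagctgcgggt
Stra8: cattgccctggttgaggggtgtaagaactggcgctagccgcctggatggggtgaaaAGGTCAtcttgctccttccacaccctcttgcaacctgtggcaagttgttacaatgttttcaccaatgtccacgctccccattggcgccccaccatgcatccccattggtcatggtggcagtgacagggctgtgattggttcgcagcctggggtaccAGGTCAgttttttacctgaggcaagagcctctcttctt
A match describes the letters only and was not tested as a site. Of these genes, Sp5, Mesp1 and Evx1 rose and Stra8 fell.

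Primitive streak genes made up the group with the highest median change. Of 24 members tested, 16 rose, 1 fell and 7 were not called, with a median change of 4.01 against 0.05 for all genes and 13.0% called higher among them. Leaving out single arrays left 15 to 17 called higher. Mesp1, the bHLH factor of the earliest cardiac and cranial mesoderm, was at -4.16 and -4.40 in undifferentiated cells and at 2.89 and 4.97 at EB day 3, a change of 8.21 ± 0.68 (adjusted p = 0.00020). Both EB day 3 arrays were far above both undifferentiated arrays, and replicate 2 was the higher of the pair. Mixl1, a paired-type homeobox factor of mesendoderm, was not well above background in undifferentiated cells (-7.77 and -7.98) and stood at -0.02 and -0.48 at EB day 3. It was at least 43.3-fold higher (adjusted p = 7.06e-05); such bounds set the dim arrays to the lowest signal well above background. Evx1, an even-skipped homeobox factor of the posterior streak, was likewise at background (-5.61 and -6.20) and reached 1.17 and 2.09, at least 158-fold higher (adjusted p = 0.00011).

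Gsc (goosecoid), a homeobox repressor of the anterior streak, rose from -4.15 and -3.26 to 4.28 and 3.80, a change of 7.74 ± 0.59 (adjusted p = 0.00015). Snai1, a zinc finger repressor of E-cadherin that starts the epithelial to mesenchymal transition, rose from -1.70 and -2.08 to 1.40 and 2.58, a change of 3.89 ± 0.39 (adjusted p = 0.00051). Sp5, a direct Wnt target, rose from 1.34 and 0.21 to 5.42 and 5.43, a change of 4.65 ± 0.75 (adjusted p = 0.0033). Cdx2, a caudal-type factor of the posterior embryo, rose by 4.14 ± 0.55 and Mesp2, the segmentation paralogue of Mesp1, by 3.20 ± 0.41. These genes kept their calls when any single array was left out. Tbx6, a factor of paraxial mesoderm, was at -0.11 and 2.21 at EB day 3 and changed by 2.93 ± 0.69 (adjusted p = 0.016). Its call was lost without EB day 3 replicate 2 (change 1.77) and without undifferentiated replicate 1. Msgn1, which follows Tbx6 in presomitic mesoderm, changed by 1.47 ± 0.60 (adjusted p = 0.11). The single member that fell was Tdgf1 (Cripto, the Nodal co-receptor), by 1.32 ± 0.42 (adjusted p = 0.048), and no array could be left out without losing that call (adjusted p up to 0.18).

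Many of these genes were also higher than at EB day 1, on the same slide. Against EB day 1, 17 of the 24 streak members were higher at EB day 3 and 1, Lefty2, was lower. Of all genes, 3.09% were higher and 2.32% lower. T was at -1.16 and -3.42 at EB day 1 and rose by 4.39 ± 0.63 from there (adjusted p = 0.0077, lost without EB day 3 replicate 2 at 0.070). Mesp1 was at -4.57 and -4.86 at EB day 1, as low as in undifferentiated cells, and rose by 8.64 ± 0.68 (adjusted p = 0.0012, held without each array). Eomes, at 0.86 and -0.24 at EB day 1, rose by a further 2.92 ± 0.59 (adjusted p = 0.025), a call that needed all 4 arrays of that comparison (adjusted p up to 0.20). At EB day 4 the levels stood at 2.12 and 1.23 for T, 2.38 and 0.98 for Eomes, 4.55 and 3.74 for Lhx1 and 5.40 and 4.86 for Mesp1. The day 4 arrays came from another slide, scan day and scanner, and day 4 was not tested against day 3.

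Endoderm and organizer lists share members with the streak list and with each other, among them Foxa2, Gsc and Lhx1, so their counts are not independent. The endoderm list, of definitive and visceral genes together, had 11 of 24 tested members higher, 1 lower and 12 not called (median change 0.69). The organizer list had 10 of 16 higher and 1 lower (median 2.95). Of all genes tested, 13.0% were called higher and 10.7% lower. Cer1 (Cerberus, made by anterior endoderm, which blocks Wnt, BMP and Nodal ligands outside the cell) was among the 15 largest increases of called genes with a symbol. It was not well above background in undifferentiated cells (-7.43 and -7.75), stood at -2.12 and -4.15 at EB day 1 and reached 2.65 and 3.22 at EB day 3. That made it at least 393-fold higher than in undifferentiated cells (adjusted p = 7.06e-05). Foxa2, a forkhead factor of endoderm, node and notochord, rose from -1.06 and -1.87 to 5.50 and 5.15, a change of 6.79 ± 0.68 (adjusted p = 0.00049). Sox17, the HMG-box factor of definitive endoderm, rose from -2.35 and -2.30 to 2.76 and 3.68, a change of 5.54 ± 0.52 (adjusted p = 0.00034). At EB day 1 Sox17 was still at -2.19 and -2.80.

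Gata6, a GATA factor of endoderm and cardiac mesoderm, rose from -1.71 and -1.89 to 2.30 and 2.84, a change of 4.37 ± 0.45 (adjusted p = 0.00055), although another of its 3 probes changed by -1.50. Foxa1 was not well above background in undifferentiated cells and was at least 8.23-fold higher at EB day 3 (adjusted p = 0.0021). Cxcr4, the chemokine receptor used to sort definitive endoderm, rose by 5.14 ± 0.61 (adjusted p = 0.00092), with 1 of the 2 undifferentiated arrays well above background. Hhex, a homeobox factor of anterior endoderm, rose by 2.04 ± 0.26 (adjusted p = 0.0013). Among the list members that were not called, Afp was at -2.33 and -5.22 in undifferentiated cells and at -5.98 and -4.37 at EB day 3, Hnf4a stayed between -5.23 and -4.89 in both groups, and Dab2 changed by -0.74 ± 0.36. Lama1, a laminin chain of the extraembryonic basement membrane, fell by 1.57 ± 0.34 (adjusted p = 0.011), a call lost without EB day 3 replicate 1 or undifferentiated replicate 2 (adjusted p up to 0.067). The summed signal of the endoderm list, on the linear scale relative to the 75th percentile, was 19.9 to 22.4 in undifferentiated cells and 113 to 121 at EB day 3. Such sums, here and below, weigh the brightest members most.

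Of the secreted antagonists among the organizer genes, Dkk1, Frzb, Fst, Cer1 and Chrd rose, and Nog, Lefty1, Sfrp1 and Sfrp5 were not called. Dkk1, an inhibitor of the Wnt co-receptors, rose from -3.42 and -3.12 to 1.84 and 3.13, a change of 5.75 ± 0.59 (adjusted p = 0.00051). Frzb, a soluble Wnt-binding protein, was at -3.75 and -6.89 in undifferentiated cells, with replicate 1 alone above background, and at 1.04 and 1.91 at EB day 3, a change of 6.79 ± 0.85 (adjusted p = 0.0011). Fst (follistatin, an Activin-binding protein) rose from -0.75 and -2.27 to 3.28 and 2.19, a change of 4.24 ± 0.59 (adjusted p = 0.0019). Otx2, a homeobox factor of the anterior epiblast, rose by 2.39 ± 0.28, and its mean at EB day 1 was 2.46. Lefty1, a Nodal inhibitor, was at 4.81 and 4.70 in undifferentiated cells and at 4.46 and 1.74 at EB day 3, and was not called (change -1.66 ± 0.68, adjusted p = 0.11). Noggin, a BMP antagonist, was not called either (-0.73 ± 0.52), and Shh was not well above background in either group.

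**Figure D2:**
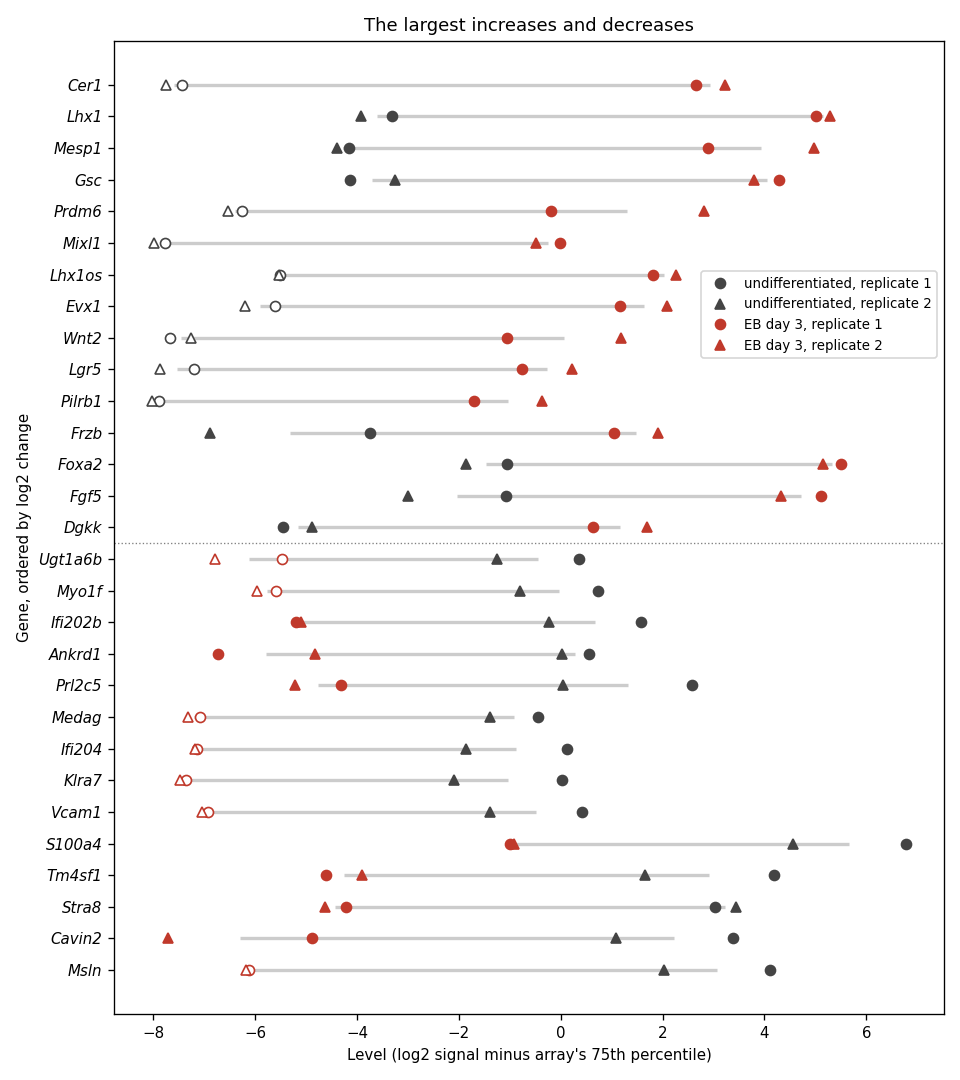
Levels (x axis, log2 signal minus the array's 75th percentile) of the 15 largest increases and 14 of the 15 largest decreases among called genes with a symbol (y axis) in the undifferentiated (grey) and EB day 3 (red) samples; circles are replicate 1, triangles replicate 2, and open symbols mark groups with no array well above background. Grey lines join group means, 8 of the increases start at background, and 7 of the decreases end there.

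Beyond these regulators, the 15 largest increases held genes of less familiar role in the streak. Lhx1os, the antisense transcript beside Lhx1, was at background in undifferentiated cells and at 1.81 and 2.25 at EB day 3, at least 188-fold higher (adjusted p = 0.00035). Prdm6, a PR-domain repressor of smooth muscle, reached -0.18 and 2.81 and was at least 128-fold higher (adjusted p = 0.0015). Pilrb1, an immunoglobulin-like receptor, was at least 25.1-fold higher (adjusted p = 7.72e-05), and Dgkk, a diacylglycerol kinase, rose by 6.34 ± 0.44 (adjusted p = 0.00011), with 1 of the 2 undifferentiated arrays well above background. Lgr5, the R-spondin receptor of Wnt-responsive stem cells, was at background in undifferentiated cells (-7.19 and -7.86) and at -0.77 and 0.22 at EB day 3, at least 42.6-fold higher (adjusted p = 7.72e-05). Each of these genes was called under every alternative setting in which it was tested.

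Mesoderm beyond the streak was less uniform. Of 26 genes of mesoderm and cardiac mesoderm, 7 rose (13.0% of all genes did), 3 fell (10.7% of all genes) and 16 were not called (median change 0.84). Dropping EB day 3 replicate 1 gave 12 that rose, and dropping replicate 2 of that group gave 4. The replicates of EB day 3 were far apart for these genes. Hand1, a bHLH factor of lateral and extraembryonic mesoderm, was at -3.00 in replicate 1 and 0.96 in replicate 2, against -5.01 and -5.05 in undifferentiated cells. Its change of 4.02 ± 1.08 (adjusted p = 0.027) was 2.04 without replicate 2, and the call was lost without that array and without either undifferentiated array (adjusted p up to 0.12). Kdr (the VEGF receptor of blood and vessel precursors) was at 0.40 and 3.20 at EB day 3 against -0.65 and -1.33, and was not called (2.79 ± 0.96, adjusted p = 0.065). It was called without EB day 3 replicate 1, at a change of 4.19. Pdgfra (a receptor of paraxial and cardiac mesoderm) was at -1.40 and 0.68 at EB day 3 and at -1.31 and -3.31 in undifferentiated cells (change 1.95 ± 0.75, adjusted p = 0.089). On the slide it shared with EB day 1 it rose by 6.02 ± 0.75 (adjusted p = 0.0046). Its mean level at EB day 1 lay near background, so the size of that rise is uncertain. Tnnt2, cardiac troponin T, fell from 0.14 and -1.24 to -5.60 and -4.77, a fall of 4.63 ± 0.50 (adjusted p = 0.00065), with 1 of the 2 EB day 3 arrays well above background.

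Blood and endothelial genes moved in both directions, where 13.0% of all genes were called higher and 10.7% lower. Of 17 tested, 3 were higher, 4 lower and 10 not called (median change -0.10). Without EB day 3 replicate 2 or undifferentiated replicate 2, 1 was called higher. Flt1, the decoy VEGF receptor, rose from -0.95 and -0.97 to 3.49 and 3.81, a change of 4.61 ± 0.30 (adjusted p = 8.21e-05). Its call held without each array, as did those of Pecam1, Tek and Tie1. Pecam1, an adhesion molecule that naive embryonic stem cells share with endothelium, fell from -0.59 and -0.03 to -3.62 and -5.08 (change -4.04 ± 0.64, adjusted p = 0.0031). Tek and Tie1, the angiopoietin receptors, dropped out of detection: Tek was at least 5.13-fold lower (adjusted p = 0.0019) and Tie1 at least 2.50-fold lower (adjusted p = 0.00051). The summed signal of the list was 15.6 to 26.9 in undifferentiated cells and 29.7 to 39.1 at EB day 3. Bright members such as Flt1 weigh most in this sum, and the median change of the list was -0.10.

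The Wnt list was the longest signalling list and had the most called members, beside 13.0% of all genes called higher and 10.7% called lower. Of 36 tested, 21 rose, 3 fell and 12 were not called, with a median change of 1.42, and 15 to 18 were called higher when single arrays were left out. Among the ligands, Wnt3, the ligand that starts the streak, rose from -2.67 and -2.56 to 2.90 and 2.79, a change of 5.46 ± 0.44 (adjusted p = 0.00019). Wnt3 was intermediate at EB day 1 (0.76 and -0.45) and rose by 2.69 ± 0.44 from there (adjusted p = 0.013), which was lost on dropping replicate 2 of either day (adjusted p up to 0.10). Wnt2, outside the list but among the 15 largest increases, was at background in undifferentiated cells and at -1.06 and 1.19 at EB day 3, at least 53.7-fold higher (adjusted p = 0.00095). Wnt5b rose by 3.45 ± 0.36 (adjusted p = 0.00057). Wnt3a rose by 2.94 ± 0.59 (adjusted p = 0.0087), a call lost without EB day 3 replicate 1, at a change of 2.48 (adjusted p = 0.053).

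Of the Wnt receptors, Fzd2 rose from 1.83 and 1.64 to 3.58 and 3.35, a change of 1.73 ± 0.21 (adjusted p = 0.00089), and Fzd7 by 1.62 ± 0.27 (adjusted p = 0.0040). Rspo3, a secreted amplifier of Wnt signals, was at least 6.06-fold higher (adjusted p = 0.00074). Targets and feedback inhibitors of the pathway moved in both directions, and Tcf7, Ccnd1, Rnf43 and Znrf3 were not called. Axin2, the scaffold protein that most cells induce on Wnt signalling, rose from -2.46 and -2.14 to 1.41 and 1.14, a change of 3.57 ± 0.31 (adjusted p = 0.00022), and Nkd1, a Dishevelled inhibitor, rose by 2.67 ± 0.41 (adjusted p = 0.0026). Notum, a lipase that removes the lipid from Wnt proteins, fell by 2.02 ± 0.56 (adjusted p = 0.031), and Porcn, the enzyme that adds it, fell by 1.04 ± 0.28 (adjusted p = 0.027). Both of those calls were lost without EB day 3 replicate 1 and without undifferentiated replicate 1, that of Notum also without EB day 3 replicate 2 and that of Porcn also without undifferentiated replicate 2 (adjusted p up to 0.14 and 0.15), and the change of Notum lay between -3.08 and -0.96 over the arrays left out. Fzd5 was the other member that fell. On the shared slide, 16 of the 36 Wnt genes were higher at EB day 3 than at EB day 1, beside 3.09% of all genes. Only Notum was lower, a call lost whichever of the 4 arrays was left out.

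Genes of the Nodal and Activin pathway were split, beside 13.0% of all genes called higher and 10.7% called lower. Of 26 tested, 5 were higher, 5 lower and 16 not called (median change 0.35). Nodal, the ligand that patterns the streak, was at 3.15 and 2.59 in undifferentiated cells and at 3.86 and 2.86 at EB day 3, overlapping ranges, and changed by 0.49 ± 0.33 (adjusted p = 0.31). Cfc1 (Cryptic, a Nodal co-receptor related to Cripto) rose from -2.09 and -2.10 to 0.82 and 1.84, a change of 3.43 ± 0.31 (adjusted p = 0.00028). Inhbb, an Activin subunit, fell from 1.00 and -0.11 to -3.78 and -4.06, a change of -4.36 ± 0.45 (adjusted p = 0.00053), while its other probe changed by -1.04. Inhba, the other Activin subunit measured, changed by -3.28 ± 0.92 (adjusted p = 0.031), and its call was lost without EB day 3 replicate 2 or undifferentiated replicate 1 (adjusted p up to 0.17). Smad4, the partner shared by all receptor-activated SMADs, rose by 1.24 ± 0.19 (adjusted p = 0.0024), although another of its probes changed by 0.02. Lefty2, the antagonist that Nodal induces, stood at 2.03 and 1.20 in undifferentiated cells and 1.65 and 1.16 at EB day 3 (-0.21 ± 0.37, adjusted p = 0.71). The count that fell was 1 without EB day 3 replicate 2 and 2 without undifferentiated replicate 1.

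In the BMP pathway 13 of 27 genes rose, 2 fell and 12 were not called (median change 0.97, or 0.91 with bounds), with 10 to 15 called higher when single arrays were left out. Of all genes, 13.0% were called higher and 10.7% lower. Bmp4, the ligand that induces posterior mesoderm and germ cells, was at 0.09 and -0.92 in undifferentiated cells and at -1.55 and 0.86 at EB day 3. It was not called (0.07 ± 0.72, adjusted p = 0.95). Bmp2 was not well above background in undifferentiated cells and was at least 7.70-fold higher at EB day 3 (adjusted p = 0.0073). The signal carrier Smad1 rose from 1.61 and 1.57 to 3.79 and 4.25, a change of 2.43 ± 0.33 (adjusted p = 0.0017). Of the target genes, Id2, Id4, Smad6, Smad7 and Tbx2 were not called. Id1, a helix-loop-helix inhibitor of differentiation, rose by 2.35 ± 0.36 (adjusted p = 0.0026), and the homeobox gene Msx1 rose from -1.93 and -2.36 to 1.68 and 2.46, a change of 4.22 ± 0.32 (adjusted p = 0.00015). Msx2 was at -0.83 and 2.29 at EB day 3 against -3.54 and -3.19, a change of 4.09 ± 0.80 (adjusted p = 0.0078) that was 2.53 without EB day 3 replicate 2. Grem1 (gremlin, a BMP antagonist that fibroblasts also make) went from 0.55 and -1.24 to background and was at least 32.7-fold lower (adjusted p = 0.0032).

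In the FGF and ERK list 7 of 22 genes were higher, 4 lower and 11 not called (median change 0.68). Of all genes, 13.0% were called higher and 10.7% lower. The ligands Fgf3, Fgf5, Fgf8 and Fgf10 rose, Fgf17 fell and Fgf15 was not called. The number higher was 12 without undifferentiated replicate 1. Fgf8, which drives cells out of the streak, rose from -0.69 and -0.32 to 4.69 and 4.57, a change of 5.13 ± 0.46 (adjusted p = 0.00027). Fgf5, the classic marker of the post-implantation epiblast, rose from -1.08 and -2.99 to 5.11 and 4.33, a change of 6.76 ± 0.58 (adjusted p = 0.00022). Fgf10, a ligand of later organ fields, rose by 4.23 ± 0.61 (adjusted p = 0.0021), from -4.80 and -5.57 to -1.89 and -0.03. Fgf17 fell by 2.08 ± 0.26 (adjusted p = 0.0011). Of the receptors, Fgfr1 was not called (-0.29 ± 0.19), and Fgfr2 changed by -1.20 ± 0.35 (adjusted p = 0.036), a call lost without any of the 4 arrays (adjusted p up to 0.19). Dusp4 and Il17rd, feedback inhibitors of ERK signalling, rose by 1.97 ± 0.37 (adjusted p = 0.0063) and 2.07 ± 0.24 (adjusted p = 0.00079). Fos, the immediate early gene, fell by 3.58 ± 0.57 (adjusted p = 0.0031).

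**Figure D3:**
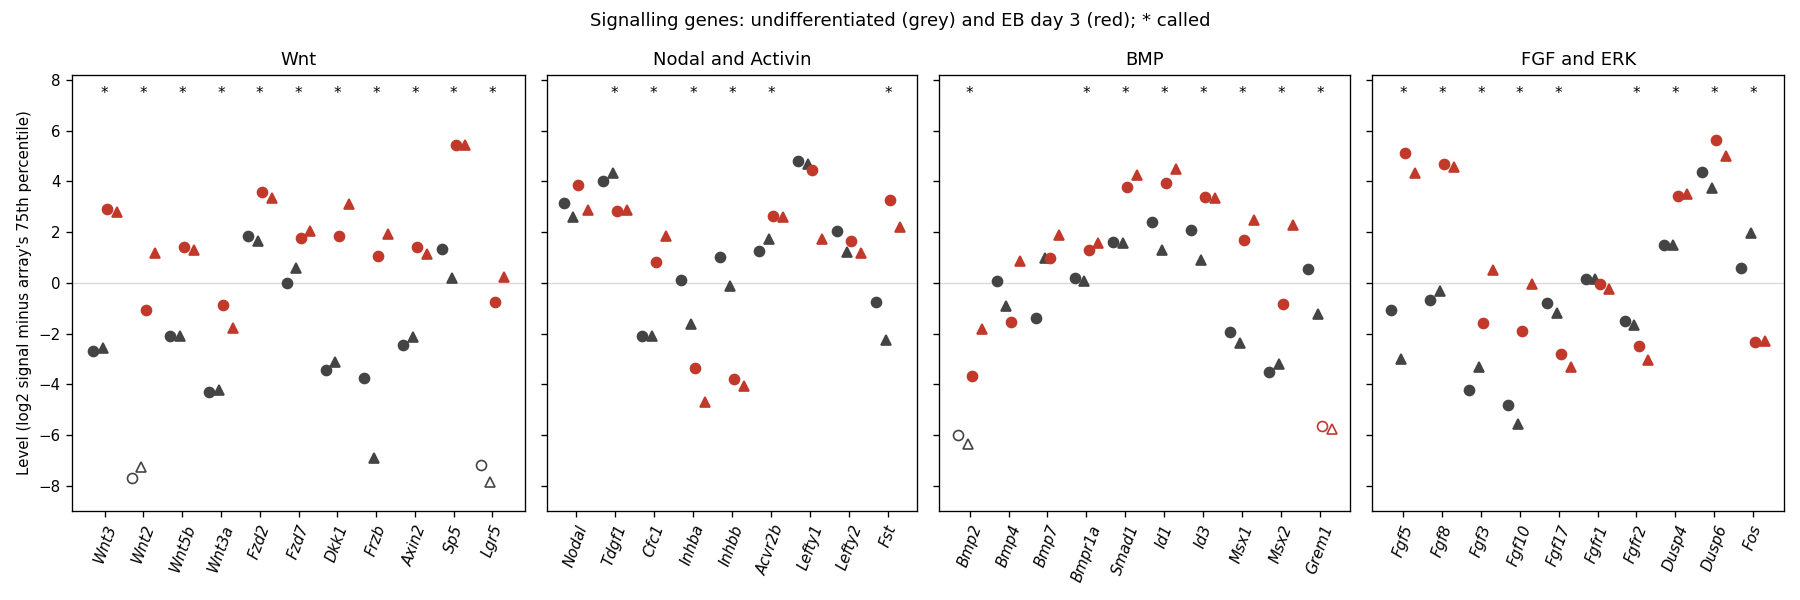
Levels (y axis, log2 signal minus the array's 75th percentile) of genes of 4 signalling pathways (x axis) in undifferentiated (grey) and EB day 3 (red) samples; circles are replicate 1, triangles replicate 2, open symbols mark groups with no array well above background, and an asterisk marks an adjusted p under 0.05. The Wnt genes shown are all among those called higher, and Wnt members called lower or not called are not shown. Nodal and Bmp4 overlapped between groups, and Inhba, Inhbb and Grem1 were lower.

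Genes of the retinoic acid pathway moved in both directions, beside 13.0% of all genes called higher and 10.7% called lower. Cyp26a1, the enzyme that degrades retinoic acid in the streak, rose from -1.14 and -2.43 to 3.76 and 4.61, a change of 5.97 ± 0.68 (adjusted p = 0.00076), and by 5.67 ± 0.68 from EB day 1 on the same slide (adjusted p = 0.0039). Stra8 had already fallen to -1.83 and -1.89 at EB day 1 and fell by a further 2.57 ± 0.54 to EB day 3 (adjusted p = 0.030), a call lost without any of the 4 arrays (adjusted p up to 0.20). It was at -6.65 and -4.92, not well above background, at EB day 4, and at -4.79 and -3.75 at ML day 3. Rarg, a retinoic acid receptor, changed by -1.34 ± 0.31 (adjusted p = 0.015) and Aldh1a2, the synthesising enzyme, by -1.22 ± 0.36 (adjusted p = 0.037), and both calls depended on single arrays. That of Rarg was lost without EB day 3 replicate 2 or undifferentiated replicate 1 (adjusted p up to 0.089), and that of Aldh1a2 without EB day 3 replicate 1 or undifferentiated replicate 2 (up to 0.20). In all, 5 of 17 members rose, 5 fell and 7 were not called (median change -0.18); the number that fell was 2 or 3 with 1 array left out.

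Germline and meiosis genes other than Stra8 were mostly low or not called. Of 27 tested, 2 rose, 7 fell and 18 were not called (median change -0.94), where 13.0% of all genes were called higher and 10.7% lower. The risers were Msx1 and Msx2, which are BMP targets as well. Hormad1, a protein of the meiotic chromosome axis, was at -1.98 and -1.72 in undifferentiated cells and at background at EB day 3, at least 11.5-fold lower (adjusted p = 0.0023). Ddx4 and Sycp3, a germ cell helicase and a synaptonemal complex protein, changed by -0.77 ± 0.43 (adjusted p = 0.22) and -0.79 ± 0.48 (adjusted p = 0.26). Dppa3 was at 2.42 and 2.76 in undifferentiated cells and at 1.76 and 0.93 at EB day 3 and was not called (adjusted p = 0.22). The number of genes that fell was 4 without undifferentiated replicate 2.

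Most naive pluripotency genes fell. Of 19 tested, none rose, 14 fell and 5 were not called, with a median change of -2.99 (-2.89 with bounds), against 10.7% of all genes called lower. Without EB day 3 replicate 2, 9 were called lower. Klf4, a Krüppel-like factor held up by LIF, fell from 5.65 and 5.88 to 1.86 and 1.81, a change of -3.93 ± 0.45 (adjusted p = 0.00079). Zfp42 (Rex1) fell from 6.44 and 5.65 to 3.46 and 2.54, a change of -3.04 ± 0.41 (adjusted p = 0.0016). Jam2, a junctional adhesion molecule, fell from 3.25 and 3.27 to -1.14 and -1.91, a change of -4.79 ± 0.34 (adjusted p = 0.00011). Nr5a2, a nuclear receptor that supports Pou5f1, fell by 3.28 ± 0.42 (adjusted p = 0.0013) and Tcl1, an AKT cofactor, by 3.54 ± 0.37 (adjusted p = 0.00057). Esrrb, the oestrogen-related receptor of naive cells, fell from 3.30 and 3.65 to 0.90 and -0.02 (change -3.03 ± 0.60, adjusted p = 0.0083), a call lost without EB day 3 replicate 2 (adjusted p = 0.060). Klf2 was at 7.31 and 7.39 before and 7.39 and 7.33 at EB day 3 on its brightest probe (0.01 ± 0.21), while its other probe changed by -2.39.

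Levels at EB day 1 are given for 3 of these genes. Klf4 was at 2.16 and 1.78 at EB day 1 and did not pass the test between EB day 1 and EB day 3 (-0.14 ± 0.45, adjusted p = 0.90). Jam2 was at a mean of 1.59 at EB day 1 and fell by a further 3.12 ± 0.34 (adjusted p = 0.0029). Zfp42 was still at 5.54 and 5.42 at EB day 1 and fell by 2.48 ± 0.41 (adjusted p = 0.013), which was lost without EB day 3 replicate 2 or either EB day 1 array (adjusted p up to 0.11). In all, 8 of the 19 naive genes were called lower at EB day 3 than at EB day 1 and none higher. Of all genes, 2.32% were called lower. Whether the change from undifferentiated cells to EB day 1 holds apart from the slide cannot be told, since those groups were on different slides.

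Of the core pluripotency factors, Pou5f1 (Oct4) went from 4.60 and 4.73 to 2.83 and 2.48, a fall of 2.01 ± 0.34 (adjusted p = 0.0043) that held without each array. Sox2 fell from 3.69 and 3.87 to 2.65 and 1.56 (-1.67 ± 0.35, adjusted p = 0.010) and Nanog from 3.14 and 3.33 to 2.16 and 1.40 (-1.46 ± 0.37, adjusted p = 0.022). The levels of both groups stayed apart for each of the 3 genes, as they did for 11479 of the 17724 genes tested. Both of the latter calls were lost without EB day 3 replicate 2 or undifferentiated replicate 2, and that for Nanog also without undifferentiated replicate 1 (adjusted p up to 0.074 and 0.14). Of the 13 members of the list, 6 fell, 2 rose and 5 were not called (median change -0.62); without EB day 3 replicate 2, 1 fell and none rose.

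The list of the formative and primed epiblast had 11 of 20 genes higher, 1 lower and 8 not called (median change 1.92). Of all genes, 13.0% were called higher and 10.7% lower. Leaving out EB day 3 replicate 1, EB day 3 replicate 2 or undifferentiated replicate 2 left 7 higher. Beside Fgf5, Zic2, a zinc finger factor, rose from -3.21 and -3.93 to 0.98 and 0.54, a change of 4.33 ± 0.29 (adjusted p = 0.00011). Cdh2 (N-cadherin) rose from -1.95 and -3.55 to 0.74 and 1.87, a change of 4.06 ± 0.55 (adjusted p = 0.0016). Pim2, a kinase, rose by 2.60 ± 0.38 (adjusted p = 0.0023) and Cldn6, a tight junction protein, by 2.00 ± 0.27 (adjusted p = 0.0015). Dnmt3b, the de novo DNA methyltransferase of the epiblast, went from 4.58 and 3.81 to 6.54 and 5.76 (1.95 ± 0.55, adjusted p = 0.032), and its call was lost without each array other than undifferentiated replicate 1 (adjusted p up to 0.16). Fgf5, Zic2 and Pim2 were already high at EB day 1: Fgf5 was at 4.06 and 3.46 there, and the means of Zic2 and Pim2 were -0.18 and 5.18. None of these 3 was called between EB day 1 and EB day 3 (adjusted p from 0.11 to 0.74).

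Targets and components of LIF and STAT3 signalling had 13 of 20 members lower, none higher and 7 not called (median change -1.27). Of all genes, 10.7% were called lower. With 1 array left out, 8 to 11 were lower, and without undifferentiated replicate 1, 1 was higher. Socs3, the feedback inhibitor of STAT3, fell from 4.64 and 5.36 to 1.64 and 1.76, a change of -3.30 ± 0.27 (adjusted p = 0.00020). Bcl3, an IkB family co-regulator, fell from 3.29 and 2.97 to -0.59 and -1.28, a change of -4.06 ± 0.26 (adjusted p = 7.72e-05). The kinases Pim1 and Pim3 fell by 2.82 ± 0.31 (adjusted p = 0.00067) and 2.44 ± 0.25 (adjusted p = 0.00053), and Stat3 itself by 1.53 ± 0.21 (adjusted p = 0.0018). No member of the list was called between EB day 1 and EB day 3, which shared a slide. Socs3 was at a mean of 1.19 and Bcl3 at 0.05 at EB day 1. The LIF receptor Lifr changed by -0.26 ± 0.43 and was not called.

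Genes of the two-cell-like state, a rare state of embryonic stem cells that resembles the cleaving embryo, fell in 7 of 9 tested members, with 2 not called (median change -2.14, or -1.26 with genes at background set to their bound). Zscan4c was at 0.62 and -0.39 in undifferentiated cells and at background at EB day 3, at least 39.1-fold lower (adjusted p = 0.00011). Tcstv1, well above background on 1 of the 2 EB day 3 arrays, fell by 3.91 ± 0.42 (adjusted p = 0.00061) and Usp17la by 2.63 ± 0.27 (adjusted p = 0.00051). These genes belong to families of near-identical copies, so the copy measured is uncertain. Without EB day 3 replicate 2, 3 of the 9 were called lower. Among the genes of DNA methylation and demethylation, Tet1 and Tet2, which oxidise methylcytosine, fell: Tet1 by 2.13 ± 0.23 (adjusted p = 0.00066), and Tet2 to background, at least 7.39-fold lower (adjusted p = 0.0036). Dnmt3l, the cofactor of the de novo enzymes, fell from 4.67 and 4.31 to 2.37 and 1.72, a change of -2.45 ± 0.33 (adjusted p = 0.0016). Dnmt1, the maintenance enzyme, was not called (-0.63 ± 0.22, adjusted p = 0.068).

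**Figure D4:**
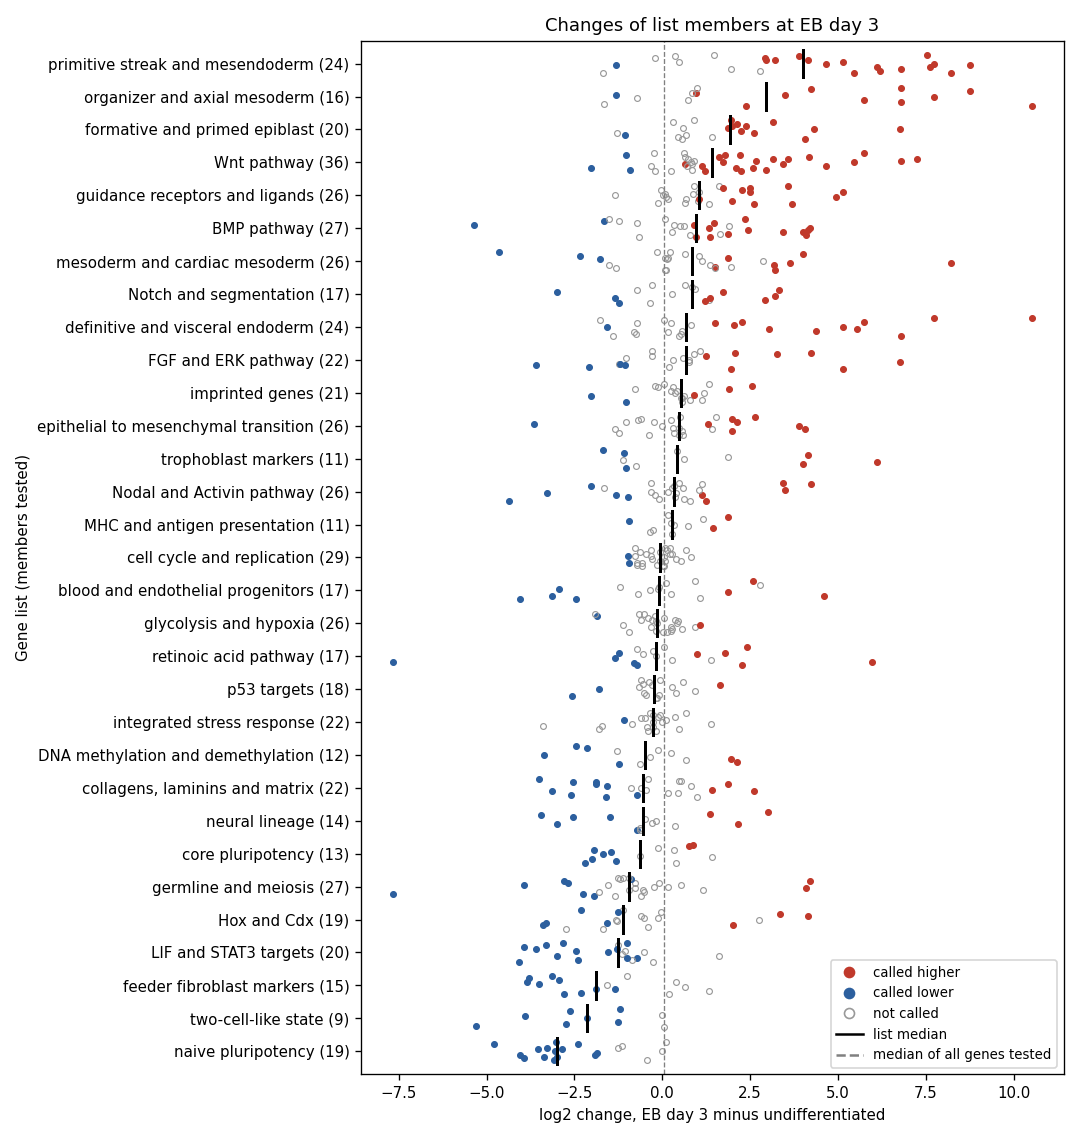
Log2 change from undifferentiated to EB day 3 (x axis) of each tested member of 31 gene lists (y axis, with the number tested); filled red and blue points were called higher and lower, open points were not called, black bars are list medians and the dashed line is the median of all genes (0.05). Primitive streak genes had the highest median (4.01) and naive pluripotency genes the lowest (-2.99), while cell cycle, glycolysis and stress genes lay near the median of all genes.

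Neural and Hox genes moved in both directions, beside 13.0% of all genes called higher and 10.7% called lower. Of 14 neural genes 3 rose and 5 fell (median change -0.55, or -0.39 with bounds). Pax6, a homeobox factor of neural progenitors, fell from -1.09 and -1.66 to -4.03 and -5.61, with 1 of these 2 arrays well above background (-3.45 ± 0.52, adjusted p = 0.0025), and Sox1, the earliest neural plate factor, was not called (-0.30 ± 0.24, adjusted p = 0.38). Of 19 Hox and Cdx genes 3 rose and 5 fell (median change -1.10, or -0.60 with bounds). Hoxb3 rose by 3.36 ± 0.41 (adjusted p = 0.0011) on its brighter probe, while the other changed by 0.42, and Hoxa5 fell to background, at least 2.29-fold lower (adjusted p = 0.0023). With single arrays left out, 2 to 4 neural genes and 2 to 5 Hox and Cdx genes were called lower. Notch and segmentation genes had 6 of 17 higher and 3 lower, and with 1 array left out 3 to 6 were higher and 0 or 1 lower. Dll3, a Notch ligand-like inhibitor of the presomitic mesoderm, rose from 0.14 and 0.01 to 2.80 and 3.97, a change of 3.31 ± 0.52 (adjusted p = 0.0030).

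Genes of the epithelial to mesenchymal transition changed in part, beside 13.0% of all genes called higher and 10.7% called lower. Of 26 tested, 7 rose, 1 fell and 18 were not called (median change 0.48). Cdh1 (E-cadherin), which Snai1 represses, was at 4.03 and 4.02 in undifferentiated cells and at 4.94 and 4.27 at EB day 3 and was not called (0.59 ± 0.25, adjusted p = 0.12). Vim (vimentin), an intermediate filament of mesenchymal cells, was at 5.80 and 4.92 against 3.87 and 4.78, and was not called either (-1.04 ± 0.46, adjusted p = 0.13). Beside Snai1 and Cdh2, the members that rose were Cldn6, Cldn7, Krt8 and Krt18, which encode claudins and keratins of epithelia, and the protease gene Mmp14. Krt8 rose by 2.64 ± 0.53 (adjusted p = 0.0085), a call lost without EB day 3 replicate 2 (adjusted p = 0.061). Cldn4, a claudin, fell by 3.66 ± 0.63 (adjusted p = 0.0044). Without EB day 3 replicate 2, 4 genes of the list were higher.

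Guidance receptors and ligands, which steer cell migration, had 11 of 26 members higher, none lower and 15 not called (median change 1.05), and 10 to 12 when single arrays were left out. Of all genes, 13.0% were called higher and 10.7% lower. Sema6d, a transmembrane semaphorin, rose from -2.95 and -4.16 to -0.16 and 0.44, a change of 3.69 ± 0.42 (adjusted p = 0.00079). Its receptor family member Plxna2 rose by 3.57 ± 0.55 (adjusted p = 0.0027). Sema6a was at background in undifferentiated cells and at least 13.5-fold higher (adjusted p = 0.0012), although another probe changed by 0.79. Flrt3, an adhesion protein of the streak and endoderm, rose by 2.60 ± 0.36 (adjusted p = 0.0017), and Rgma, a BMP co-receptor, by 2.00 ± 0.34 (adjusted p = 0.0044). Between EB day 1 and EB day 3, 7 of the 26 were higher and none lower, beside 3.09% and 2.32% of all genes. Sema6d rose by 3.71 ± 0.42 (adjusted p = 0.0034) and Rgma by 2.88 ± 0.34 (adjusted p = 0.0039), and both calls held without each array.

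The largest decreases were of another kind. Msln (mesothelin, a surface protein of mesothelium) was at 4.11 and 2.03 in undifferentiated cells and at background at EB day 3, at least 349-fold lower (adjusted p = 0.00015). Tm4sf1, a tetraspanin-like membrane protein, fell from 4.18 and 1.66 to -4.60 and -3.91 (-7.17 ± 0.89, adjusted p = 0.0011), and S100a4, a calcium-binding protein of fibroblasts, from 6.78 and 4.55 to -0.99 and -0.93 (-6.63 ± 0.70, adjusted p = 0.00059). Cavin2, a coat protein of caveolae, fell from 3.38 and 1.08 to -4.88 and -7.72 (-8.53 ± 1.30, adjusted p = 0.0026), with EB day 3 replicate 2 not well above background, so that the size of the change depends on a dim array. Vcam1, an adhesion molecule, and Medag, an adipogenesis gene, fell to background and were at least 29.8-fold and at least 22.0-fold lower. The interferon-inducible genes Ifi204 and Ifi202b and the myosin gene Myo1f of myeloid cells were in the same set, and Myo1f fell from 0.73 and -0.79 to background, at least 40.7-fold lower (adjusted p = 0.00036). Ankrd1, a target of YAP and of stretch, fell by 6.07 ± 0.59 (adjusted p = 0.00038), with 1 of the 2 EB day 3 arrays well above background. Of the 15 largest decreases, 14 were higher in undifferentiated replicate 1 than in replicate 2, with a median difference of 1.81, against 50.3% of all 1899 genes called lower. Among the 15 largest increases, 12 were higher in that replicate, with a median difference of 0.28, against 59.7% of the 2297 genes called higher.

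Markers of feeder fibroblasts, which embryonic stem cells are often grown on, were measured beside these genes. Of 15 tested, 9 fell, none rose and 6 were not called (median change -1.89). Their summed signal, on the linear scale relative to the 75th percentile, was 55.4 to 78.4 in undifferentiated cells, with 12 of 15 higher in replicate 1, and 45.6 to 50.6 at EB day 3; at EB day 1 it was 44.1 to 53.4. Col1a2, a chain of type I collagen, fell from 3.65 and 2.40 to -0.20 and -0.04 (-3.15 ± 0.45, adjusted p = 0.0019), Col3a1 by 3.51 ± 0.56 (adjusted p = 0.0033) and Dcn, decorin, by 3.79 ± 0.59 (adjusted p = 0.0028). Acta2 and Tagln, markers of contractile fibroblasts, were not called (0.18 ± 0.19 and 0.40 ± 0.26). These values are of the brightest probe of each gene, and with the mean of its probes Acta2 was called lower. None of the 15 was below background in undifferentiated cells or at EB day 3, and Lum, Postn and Fap did not pass the filter on dim probes. The part of fibroblasts in the decreases was not tested. The matrix list, which shares Col1a1, Col1a2 and Col3a1 with the fibroblast list, had 9 of 22 lower, 3 higher and 10 not called (median change -0.54), and 4 to 6 lower when single arrays were left out; Nid1, nidogen of the basement membrane, fell by 2.55 ± 0.31 (adjusted p = 0.00094). For the fibroblast list, 4 to 9 were lower with 1 array left out, the fewest without undifferentiated replicate 1.

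Of all genes tested, 13.0% were called higher and 10.7% lower. Of 29 cell cycle and replication genes 2 fell and none rose (median change -0.07), and Mki67, the proliferation antigen, changed by 0.28 ± 0.22 (adjusted p = 0.38). Of 26 glycolysis and hypoxia genes 1 rose, 1 fell and 24 were not called. Gapdh and Ldha, glycolytic enzymes, changed by 0.26 ± 0.27 and 0.36 ± 0.35. Of 22 genes of the integrated stress response 1 fell (Psat1, a serine synthesis enzyme, by 1.10 ± 0.26, adjusted p = 0.018, lost without EB day 3 replicate 2 or either undifferentiated array at up to 0.11). Of 18 p53 targets 1 rose and 2 fell: Pmaip1 (Noxa) rose by 1.64 ± 0.31 (adjusted p = 0.0069), and Gdf15 fell by 2.56 ± 0.43 (adjusted p = 0.0041). Of 21 imprinted genes 3 rose and 2 fell; Rian, a maternally expressed noncoding RNA, rose from -0.12 and -0.13 to 2.53 and 2.32 (2.55 ± 0.20, adjusted p = 0.00017) on its brighter probe, while the other changed by 0.73. Trophoblast markers, counted as a sign of another lineage, had 3 of 11 higher. These were Eomes, Cdx2 and Hand1, which the streak and mesoderm lists hold as well. The 3 lower were Ascl2, Esx1 and Sox15, with fewer called when any 1 array was left out. The summed signal was 7.43 to 8.61 in undifferentiated cells and 15.84 to 18.98 at EB day 3, a sum in which bright members such as Eomes weigh most.

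The last comparison set embryoid bodies against the mono layer at day 3, which share a scan day but not a slide. It addresses which of these changes differ between the culture formats. Of 17724 genes, 286 were higher at EB day 3 than at ML day 3 (1.61%) and 300 lower (1.69%). The sum of 586 was 112 once EB day 3 replicate 2 was dropped. Dropping ML day 3 replicate 1 gave 150 and dropping its partner, replicate 2, gave 2482; that group had 18.3% of genes 2-fold or more apart between its replicates. Of the streak genes 11 of 24 were higher in embryoid bodies and none lower, and of the endoderm genes 11 of 24 were higher and 1 lower. Sox17 was at -1.85 and -3.61 at ML day 3 and 5.95 ± 0.52 higher in embryoid bodies (adjusted p = 0.0015). Cer1 was at -2.59 and -3.10 there and 5.78 ± 0.58 higher (adjusted p = 0.0024), and Lhx1 at 0.60 and -0.65 and 5.18 ± 0.56 higher (adjusted p = 0.0030). Gata6 was 4.70 ± 0.45 higher (adjusted p = 0.0022). These 4 differences were called under each alternative that tested the gene, except the fit of the 4 arrays alone. In that fit no gene passed (1946 of 17724 at an unadjusted p under 0.05).

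Other genes of the streak did not pass the test between formats. T was at 1.08 and 0.84 at ML day 3, 1.14 ± 0.63 below embryoid bodies (adjusted p = 0.40). Eomes was at 0.11 and 1.62 and 2.36 ± 0.59 lower than in embryoid bodies (adjusted p = 0.069). Wnt3 differed by 0.24 ± 0.44 and Fgf8 by 0.41 ± 0.46 (adjusted p = 0.85 and 0.72). Fgf5 differed by 0.71 ± 0.58, and no gene of the naive, core or formative lists was called between the formats. Only 1.61% of all genes were called higher and 1.69% lower, so the lack of calls does not show that the formats agree in these lists. In the integrated stress response, 7 of 22 genes were lower in embryoid bodies than at ML day 3 and none higher, among them Atf3, a stress-induced factor (-4.14 ± 0.73, adjusted p = 0.021), and Asns, asparagine synthetase (-1.71 ± 0.31, adjusted p = 0.023). The calls of Atf3 and Asns were lost without EB day 3 replicate 2 or ML day 3 replicate 1 (adjusted p up to 0.19), and that of Asns also without EB day 3 replicate 1.

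**Figure D5:**
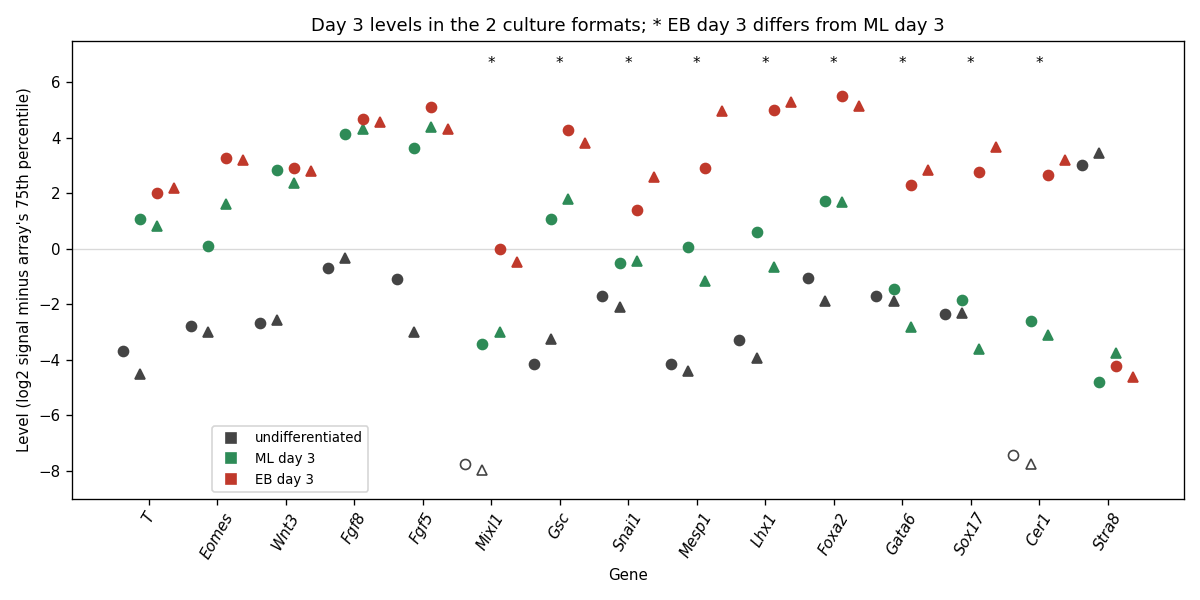
Levels (y axis, log2 signal minus the array's 75th percentile) of 15 genes (x axis) in undifferentiated cells, ML day 3 and EB day 3; circles are replicate 1, triangles replicate 2, open symbols mark groups with no array well above background, and an asterisk marks an adjusted p under 0.05 between EB day 3 and ML day 3. T, Eomes, Wnt3, Fgf8 and Fgf5 carry no asterisk, whereas Sox17 (5.95), Cer1 (5.78) and Lhx1 (5.18) had the largest differences of the genes shown.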

How the data were processed

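Total RNA of 12 samples was hybridised to 1-colour Agilent mouse arrays. The authors deposited scanner output whose processed signal is a background-subtracted intensity, per the file headers (Feature Extraction 10.7.3.1 on EB day 1, EB day 3 and ML arrays, 10.5.1.1 on undifferentiated arrays and 10.7.1.1 on EB day 4 arrays, against 9.5.1.1 in the submitters' processing notes). A value table, also deposited by the authors as intensity, had the same median of 36.6 in every column and correlated with the arrays at 0.998 to 1.

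Log2 processed signal was set to each array's 75th percentile, which lay between 326 and 596. Control spots and outlier flags were left out. Probes well above background on both arrays of at least 1 group were kept (26176), and the probe with the highest mean stood for each of 17724 genes. All 12 arrays were fitted by group with limma 3.58.1 in R 4.3.3 (lmFit, eBayes, Benjamini-Hochberg over all genes, residual degrees of freedom 6). Of the genes, 14958 have a symbol from RefSeq names and 2766 keep the array's own name. Named were a panel of streak, endoderm, epiblast and pluripotency genes whatever their call, the 15 genes with the largest rise and the 15 with the largest fall among called genes with a symbol whose arrays did not overlap between groups, of each list the 5 called members with the largest change and the 2 uncalled members with the highest mean signal, and other list members with their values only; a few genes, 1 of them among the largest falls, are not reported here. The members and lists were chosen with earlier results of these data known.

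On simulated data the test recovered 10 of 67 genes changed by 1 on the log2 scale, 45 of 67 changed by 2 and 63 of 66 changed by 3. It called 4 of 17524 unchanged genes in EB day 3 against undifferentiated. The simulation changed far fewer genes than the 4196 called in the data and held no slide effect, so these rates may not carry over. The part of the slide, which cannot be told apart from group in the main comparison, was not tested here. With 2 arrays a group, the number of arrays limits the precision. Alternatives were other background corrections, normalizations, filters, probe rules, priors, the replicate block, the 4 arrays alone and each array left out.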

Additional observations from a re-analysis of the deposited data

Results flagged for a closer look

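By the limma test of the difference (adjusted p under 0.05), 9 marker genes changed differently from undifferentiated cells in embryoid bodies and in the mono layer at day 3. They come from a larger panel chosen with earlier results of these data known. Of all genes, 3.31% were called in this comparison. The EB day 3 change exceeded the ML day 3 change, on the log2 scale, by 5.95 for Sox17, 5.78 for Cer1, 5.18 for Lhx1, 4.70 for Gata6, 4.48 for Mesp1, 3.62 for Foxa2, 2.96 for Mixl1, 2.60 for Gsc and 2.47 for Snai1. With both changes taken from the same undifferentiated arrays, each difference is that between EB day 3 and ML day 3. Sox17, Cer1, Lhx1 and Gata6 kept their calls without each array. Another probe of Gata6 fell from undifferentiated cells to EB day 3. The call of Mesp1 was lost without EB day 3 replicate 2 (adjusted p = 0.15) and that of Mixl1 without ML day 3 replicate 1 (adjusted p = 0.082). Those of Foxa2 and Gsc were lost without either EB day 3 array or ML day 3 replicate 1 (adjusted p up to 0.13 and 0.23), and that of Snai1 without EB day 3 replicate 2 or ML day 3 replicate 1 (adjusted p up to 0.16). All 9 calls were lost when the 4 arrays were fitted alone. The formats were on different slides, whose part in these differences cannot be told apart.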

How the results depend on the processing

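The 2297 higher and 1899 lower calls against undifferentiated cells were 844 and 795 with the 4 arrays alone, and 1262 were lower under the strict filter, where 63.0% of calls were higher. With 1 array left out, 1022 to 1975 were higher and 806 to 1530 lower. The median change of all genes moved from 0.05 to 0.17 without a filter and 0.13 with the strict one. The 959 calls against EB day 1 were 571 without a filter and 104 to 994 with 1 array left out. The 586 calls against ML day 3 were 373 without a filter, 0 with the 4 arrays alone by limma (1946 at an unadjusted p under 0.05) and 112 to 2482 with 1 array left out. The labels do not say whether same-numbered clones match between groups. Across genes, the difference of replicate 2 from replicate 1 correlated between -0.15 and 0.23 over pairs of groups. With the replicate block, 2268 were higher and 1845 lower. Of 246 called list or named genes, 123 were called under every setting in which they were tested. Of the arrays left out, EB day 3 replicate 2 ended the most calls and EB day 3 replicate 1 the fewest. Acta2 (-1.67), Cdh11 (2.73), Klf2 (-1.19) and Ncam1 (-0.82), not called here, were called with the opposite sign with the mean of a gene's probes. Foxf1, not called here, was at -1.64 without EB day 3 replicate 2 and 1.90 without replicate 1. Other genes not called here also changed sign with 1 array left out, among them Bmp4 (-1.14 to 1.28). The cause was not tested.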
